A study of Mus musculus with 15 samples.

Results

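The linker histone H1 genes were followed in RNA-seq counts after loss of the chromatin protein Hmga1 in mouse ESC, pluripotent stem cells taken from the early embryo. The genes were chosen by symbol. Hist1h1a, Hist1h1b, Hist1h1c, Hist1h1d, Hist1h1e, H1f0 and H1fx make 7 of the 21662 genes counted, and all 7 passed the minimum of 10 reads on average in both experiments. The KO experiment held 9 samples. They were 3 WT, 2 Hmga1 KO, 2 KO with an Hmga1 add-back and 2 KO with an Hmga2 add-back. In the KO line Cas9 cutting had shifted the reading frame of Hmga1. The add-backs carried biotin-tagged Hmga1 or Hmga2 cDNA under the CAG promoter, placed by Cre at a defined genomic site of the KO line. The full-deletion experiment held 6 samples, 3 WT, named WT_2 here after the labels, and 3 of a line from which the whole coding sequence of Hmga1 had been removed. The parental line expresses the BirA biotin ligase under the CAG promoter, and each genotype is a single cell line, so that clone and genotype cannot be told apart. The cells were of a mixed 129Sv and C57Bl/6 background and grew with serum and LIF on feeder cells or gelatine. By the study's methods RNA came from independent cultures taken on different days.

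Linker histones bind the nucleosome where the DNA enters and leaves it, together with the stretch of DNA between nucleosomes, and favour compact chromatin. The high mobility group (HMG) proteins, to which Hmga1 belongs, compete with them for these sites. Hist1h1a to Hist1h1e are replication-dependent: their mRNA is made in S phase and ends in a stem-loop rather than a poly(A) tail. H1f0 and H1fx are transcribed outside S phase too and carry poly(A) tails, and H1f0 is known to accumulate in cells that stop dividing or differentiate. The libraries were made from total RNA depleted of ribosomal RNA, so that both kinds of mRNA could be counted.

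The difference in mRNA ends is visible in the genome. The 16 bases of the histone stem-loop were searched for in the 200 bases after each stop codon (NCBIM37 genome, GENCODE annotation). They are shown because they separate the replication-dependent genes from H1fx. Capitals mark the stem-loop and small letters the 5 flanking bases on either side, 5′ to 3′ on the strand of the gene.
Hist1h1a: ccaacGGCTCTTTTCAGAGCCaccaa
Hist1h1b: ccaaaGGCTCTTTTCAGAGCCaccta
Hist1h1c: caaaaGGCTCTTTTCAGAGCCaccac
Hist1h1d: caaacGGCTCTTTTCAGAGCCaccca
Hist1h1e: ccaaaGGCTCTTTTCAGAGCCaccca
The 16 bases were the same letters in all 5 genes. They lay at chr13:23856261-23856276 for Hist1h1a and chr13:23831381-23831396 for Hist1h1c, both on the plus strand, as was that of Hist1h1d at chr13:23647656-23647671. On the minus strand they lay at chr13:21871706-21871721 for Hist1h1b and chr13:23713651-23713666 for Hist1h1e. The first stem-loop base was 25 to 41 bases after the stop codon. Of 21916 protein-coding genes searched in the same window, 65 (0.297%) held a histone stem-loop, and 61 of the 65 had a symbol starting with Hist. H1fx held none in this window. H1f0 was not searched, because its record in this annotation is a short pseudogene entry with no stop codon.

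The promoters were searched for AAACACA, the H1 box described upstream of linker histone genes, in the 200 bases before the annotated start and on both strands. Capitals mark the box and small letters 10 bases on either side, on the strand of the gene.
Hist1h1b: ggggactaacAAACACAatttgggatt
Hist1h1c: gaagtgtaacAAACACAagttgggcgc
Hist1h1d: gaggggcaacAAACACAgccacaaggc
Hist1h1e: gaggtgtaacAAACACAactccgcatc
The boxes began 117, 112, 122 and 171 bases before the start of Hist1h1b, Hist1h1c, Hist1h1d and Hist1h1e. They lay at chr13:21872605-21872611, chr13:23830564-23830570, chr13:23646779-23646785 and chr13:23714536-23714542 in the same order. These letters were not in the windows of Hist1h1a and H1fx. Of 21916 promoter windows, 954 (4.35%) held them on either strand.

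All 5 replication-dependent genes are genes of 1 exon on chromosome 13. Hist1h1a (bases 23855537 to 23856283), Hist1h1c (23830676 to 23832235) and Hist1h1d (23646901 to 23650721) are read from the plus strand, and Hist1h1b (21871752 to 21872494) and Hist1h1e (23713624 to 23714371) from the minus strand. H1fx is a gene of 1 exon on chromosome 6 (87930416 to 87931476, minus strand) with Gm5577 annotated on the opposite strand, whose reads are kept apart by the strand-specific count. H1f0 is on chromosome 15, where its record spans 78859152 to 78859689. Some reads could belong to more than 1 gene. Of all stretches of 47 bases, the length of a trimmed read, 77.1% occurred once in the genome for Hist1h1e, 91.1% for Hist1h1c and 95.0% for Hist1h1d, against 99.9% to 100% for Hist1h1a, Hist1h1b and H1fx. For H1f0 it was 100% over the 534 bases of the short record, and the rest of the 2289 bases counted was not measured. Hist1h1c and Hist1h1d had 111 such stretches in common, so that a part of their reads was split between them at random.

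Between 13465399 and 34952136 reads fell on genes per sample. Samples named a in the KO experiment, which share a day of library preparation and a flow cell, had more than 2 times the reads of those named b, and WT c was the only sample of its batch. WT_2 b stood apart from the other 5 samples of its experiment. Its 10 most abundant genes took 8.78% of its reads, against 4.67% to 5.38% in the others, and its TMM scaling factor was 0.752 against 0.986 to 1.12. Levels are given as CPM, read counts relative to the library total after TMM scaling. Hmga1 had 220.6 to 464.2 CPM in WT and 96.1 to 216.9 in KO. By the paper, the KO line still makes a shorter Hmga1 transcript that lacks exon 3. In the other experiment Hmga1 had 310.4 to 356.6 CPM in WT_2 and 10.9 to 12.3 in the full deletion. Markers of ESC varied in level. Pou5f1 was at 955.0 ± 79.6 CPM in WT and 759.4 ± 58.2 in WT_2, and Nanog at 202.0 ± 53.5 and 72.1 ± 26.6 (SD, n = 3 each). Dppa5a was lower in WT_2 as well, at 485.4 ± 135 and 92.0 ± 40.9 CPM, while Zfp42 was higher, at 961.0 ± 88.7 and 1753 ± 947. The experiments were normalised separately. Summed, 9 such markers had 4844 to 5404 CPM in WT, 5624 to 5784 in KO, 4463 to 7487 in WT_2 and 4146 to 4247 in the full deletion. The summed CPM of 12 differentiation markers was 101.5 to 129.1 in WT and 62.5 to 66.7 in KO, and 60.3 to 91.3 in WT_2 and 62.7 to 66.6 in the full deletion. That of 11 markers of feeder fibroblasts was 388.2 to 681.3 in WT, 636.2 to 646.9 in KO, 498.4 to 637.4 in WT_2 and 766.6 to 1028 in the full deletion, nearly all of it Fn1, and 4 or 5 of the 11 were at 0 in KO, WT_2 and the full deletion.

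The linker histones of ESC were mostly replication-dependent. Dividing CPM by the exon length in kilobases gives RPKM, which lets genes be compared with one another. On that scale the 5 replication-dependent genes made 97.1% to 99.0% of the summed RPKM of the 7 genes in each of the 15 samples. In WT the order was Hist1h1a (922.0 ± 140 RPKM), Hist1h1b (601.8 ± 47.8), Hist1h1c (387.1 ± 91.0), Hist1h1d (173.8 ± 3.60), Hist1h1e (118.4 ± 18.0), H1f0 (24.3 ± 2.68) and H1fx (7.83 ± 5.36; SD, n = 3 throughout). None of these neighbours in the order had overlapping sample values. In WT_2 the order of the first 3 genes was Hist1h1a (1063 ± 118 RPKM), Hist1h1c (657.1 ± 56.0) and Hist1h1b (470.3 ± 113; SD, n = 3). The lengths came from the gene models of the count table (747 bases for Hist1h1a, 672 for Hist1h1b, 2977 for Hist1h1d and 1931 for Hist1h1e, for example). Those of Hist1h1e and H1f0 are longer than the GENCODE models of 748 and 534 bases. The GENCODE models of Hist1h1c and Hist1h1d run past their stem-loops, which end at bases 23831396 and 23647671, to 23832235 and 23650721. The lengths used for these were 1561 and 2977 bases. The RPKM of all these genes, and with it the order, thus depends on the annotation.

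**Figure D1:**
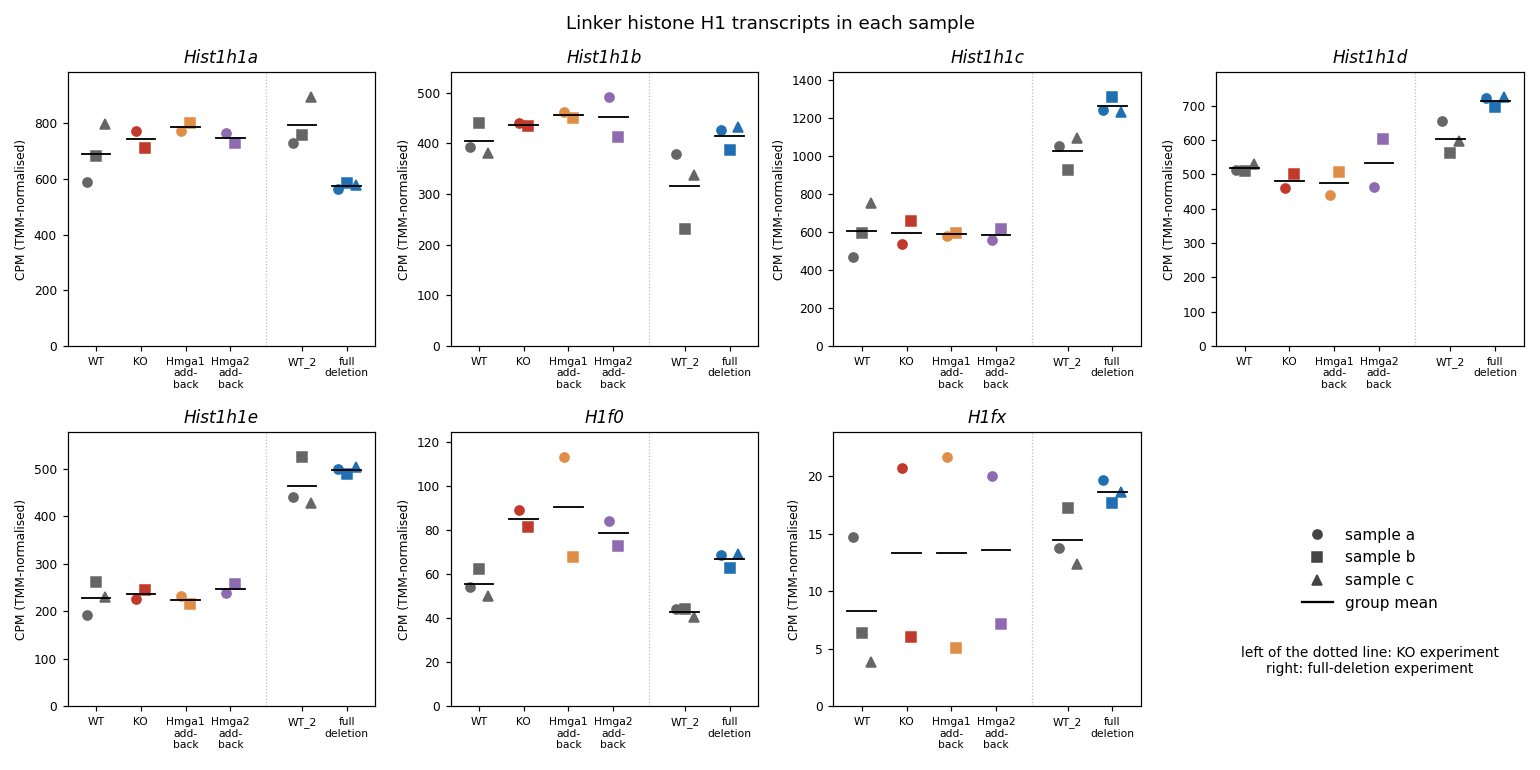
Level of each linker histone gene in each sample, in TMM-normalised CPM (linear axes from 0). Symbols mark samples a, b and c, and lines mark group means. The dotted line separates the KO experiment from the full-deletion experiment, which were normalised separately. H1f0 lies higher in all 6 KO and add-back samples than in the 3 WT samples, and in the 3 full-deletion samples than in WT_2, while in the KO experiment the a samples of H1fx stand above the b samples.

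Loss of Hmga1 through the frameshift was addressed by KO against WT. No linker histone gene passed an adjusted p under 0.01 with a fold change of at least 2 by the quasi-likelihood test of edgeR, adjusted after Benjamini and Hochberg over all genes, against a background of 0.0216% of 13912 genes (3 genes). At an adjusted p under 0.05 with no minimum fold change the background was 0.0647% and again no linker histone gene passed. At an unadjusted p under 0.05 it was 12.6% of all genes and 1 of the 7, H1f0. DESeq2 and limma-trend also called none of the 7. The fit held a term for batch, and since WT c was alone in its batch, the comparison rested on samples a and b.

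H1f0 had 54.2, 62.2 and 50.2 CPM in WT and 89.0 and 81.4 in KO. The groups did not overlap. Its log2 fold change was 0.54 (standard error, SE, 0.20; adjusted p = 0.338 in edgeR with Benjamini-Hochberg adjustment). H1f0 was at 164% of the WT sample of its own batch in batch a and at 131% in batch b. Without WT a the log2 fold change was 0.28, and without WT b it was 0.83, with adjusted p-values of 0.965 and 0.0528 in edgeR. It was positive in all 17 alternatives.

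Among the replication-dependent genes, Hist1h1a had 587.2, 683.2 and 795.7 CPM in WT and 771.7 and 712.1 in KO, and these ranges overlapped. It was at 131% of the WT sample of its batch in batch a and at 104% in batch b. Its log2 fold change was 0.23 (SE 0.12, adjusted p = 0.472 in edgeR with Benjamini-Hochberg adjustment). Hist1h1c, at 604.3 ± 142 CPM in WT and 596.1 ± 86.3 in KO (SD, n = 3 and 2), had a log2 fold change of 0.17, which was -0.02 when the batch term was left out. The values of Hist1h1b (0.07), Hist1h1e (0.06) and Hist1h1d (-0.09) were smaller than their standard errors of 0.12 to 0.14. Hist1h1d was the only linker histone gene whose KO samples, at 460.7 and 500.0 CPM, both lay below the WT samples, at 509.4 to 529.5. Samples of KO and WT were separate and higher in KO in 13% of all genes, and lower in 10.5%, against 1 of the 7 in each direction here.

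H1fx differed more between batches than between genotypes. In samples a, b and c of WT it had 14.7, 6.36 and 3.86 CPM. In KO it had 20.7 CPM in sample a and 6.0 in sample b. The ratio of sample a to sample b was 2.32 in WT, 3.44 in KO and 4.31 and 2.82 in the Hmga1 and Hmga2 add-backs. The mean log2 difference of 1.57 between a and b was larger than in 99.9% of the 13912 genes, of which the median was 0.03. Those of the other 6 linker histone genes were between -0.21 and 0.22. The a samples also had more reads, and the part of that in the result was not tested. H1fx was also the gene with the fewest reads, 67 to 101 in the b samples and 466 to 754 in the a samples. Its log2 fold change in KO was 0.24 (SE 0.23, adjusted p = 0.702 in edgeR with Benjamini-Hochberg adjustment).

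The add-backs addressed whether tagged Hmga1 or Hmga2 returned transcription towards WT, and the linker histone genes stayed close to their KO levels. The count of Hmga1 itself did not show its add-back, although the paper reports by Western blot that the protein was back near its WT level. That count was at 184.0 and 122.7 CPM in the Hmga1 add-back against 216.9 and 96.1 in KO (log2 fold change 0.04, adjusted p = 0.9999 in edgeR with Benjamini-Hochberg adjustment). All 7 linker histone genes had log2 fold changes between -0.07 and 0.08 in the Hmga1 add-back against KO, and between -0.12 and 0.14 in the Hmga2 add-back, with standard errors of 0.12 to 0.23. The adjusted p-values in edgeR were at least 0.877 after Benjamini-Hochberg adjustment, and no linker histone gene had an unadjusted p under 0.05. At the first threshold 0% of 13912 genes were called in the former and 0.00719% in the latter. At an adjusted p under 0.05 these backgrounds were 0% and 0.0144%, and at an unadjusted p under 0.05 they were 2.8% and 5.09%. DESeq2 and limma-trend called none of the 7 either. Both comparisons share the same 2 KO samples.

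H1f0 had 113.2 and 67.6 CPM in the Hmga1 add-back and 84.4 and 72.6 in the Hmga2 add-back. Each of these 4 values was above the WT range and both groups overlapped with KO. H1f0 was the only one of the 7 for which all 6 samples of the KO line and its derivatives lay above all 3 WT samples, which held for 5.15% of the 13912 genes. None of the 7 lay below them, which held for 3.69%. Relative to the WT sample of the same batch, it was at 209% and 109% in the Hmga1 add-back and at 156% and 117% in the Hmga2 add-back, batches a and b. The difference was thus larger in batch a in each of the 3 lines.
Hist1h1b, at 450.6 and 460.9 CPM in the Hmga1 add-back against 433.8 and 439.9 in KO, was the only one of the 7 whose samples were separate in the Hmga1 add-back comparison (8% of all genes were separate and higher there, and 6.84% lower). No linker histone gene was separate in the Hmga2 add-back comparison, in which 10.5% of all genes were higher and 9.87% lower. Hist1h1d, with 462.6 and 602.8 CPM in the Hmga2 add-back, had the largest log2 fold change of that comparison, 0.14 (SE 0.12).

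**Figure D2:**
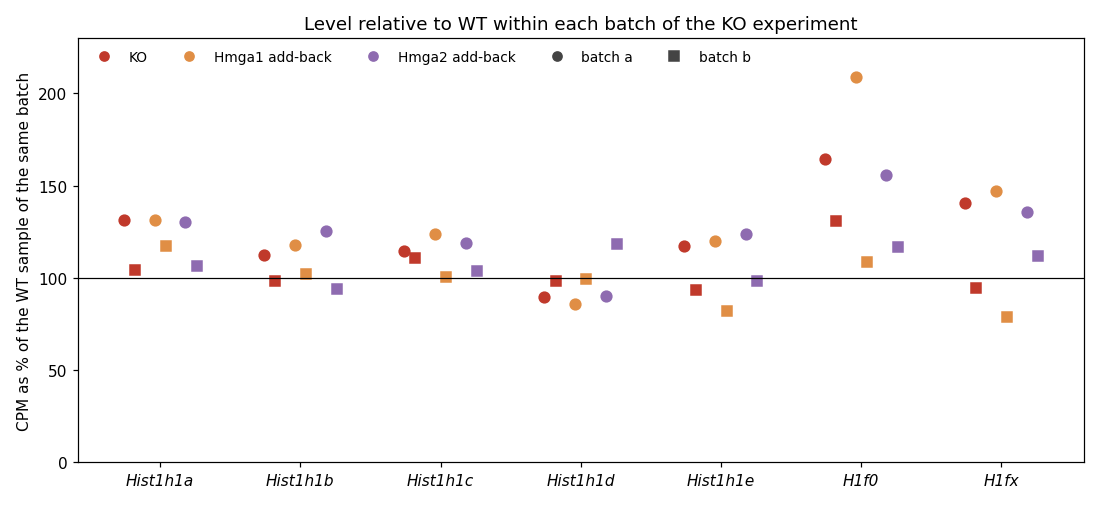
CPM of each linker histone gene in KO and the add-backs as a percentage of the WT sample of the same batch (linear axis from 0, with a line at 100%). Circles are batch a and squares batch b. H1f0, Hist1h1a and Hist1h1c are above 100% in all 6 samples, from 109% to 209%, 104% to 131% and 101% to 124%. Hist1h1b and H1fx are above it in batch a in all 3 lines and on both sides of it in batch b. The 6 values of a gene are all relative to WT a or WT b, so they are not separate comparisons. WT c has no partner and is left out. With WT c counted, the CPM of Hist1h1a and Hist1h1c overlapped between WT and these 6 samples, and those of H1f0 did not.

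Removal of the whole coding sequence was compared with WT_2. Again no linker histone gene passed an adjusted p under 0.01 with a fold change of at least 2 in edgeR, DESeq2 or limma-trend (background in edgeR 0.0687% of 13098 genes, 9 genes). At an adjusted p under 0.05 with no minimum fold change H1f0 passed, against a background of 8.25% of all genes in either direction and 4.47% that were higher. At an unadjusted p under 0.05, 4 of the 7 passed, namely H1f0, Hist1h1a, H1fx and Hist1h1c, against 37% of all genes. Over all genes the median was 0.04 on the log2 scale, and it was 0.32 when counts were scaled by their sum rather than by TMM. No linker histone gene changed direction under any of the 13 alternatives of this comparison.

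H1f0 rose in the full deletion. It had 44.0, 44.0 and 40.5 CPM in WT_2 and 68.8, 62.7 and 69.2 in the full deletion, with no overlap. Its log2 fold change was 0.64 (SE 0.10, adjusted p = 0.0216 in edgeR with Benjamini-Hochberg adjustment). With DESeq2 the adjusted p was 1.84e-05. H1f0 was separate and higher both here and in all KO and add-back samples against WT, which held for 265 of 13050 genes (2.03%). The summed feeder markers were also higher in the full deletion, which was nearly all Fn1, at 578.9 ± 74.4 CPM in WT_2 and 870.3 ± 133 in the full deletion (SD, n = 3 each). Of the 4 feeder markers tested, 3 were above 0 and none passed an adjusted p under 0.05 in edgeR. The summed differentiation markers were not higher. The part of either list in the result was not tested.

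Hist1h1a was the only one of the 7 with a lower mean level in the full deletion. It had 730.1, 757.6 and 894.3 CPM in WT_2 and 562.0, 583.9 and 576.4 in the full deletion, and the groups did not overlap. The log2 fold change was -0.47 (SE 0.13, adjusted p = 0.0567 in edgeR with Benjamini-Hochberg adjustment). With DESeq2 the adjusted p was 0.00120, and with counts scaled by their sum the value was -0.19 beside an all-gene median of 0.32.

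The other replication-dependent genes had higher means. Hist1h1b had 378.3, 231.6 and 338.2 CPM in WT_2 and 426.4, 386.7 and 432.4 in the full deletion (log2 fold change 0.39, SE 0.19). Hist1h1c had 1055, 927.3 and 1095 CPM in WT_2 and 1245, 1313 and 1231 in the full deletion (0.30, SE 0.13). Both were separate between the groups, with WT_2 b the lowest sample in each. Hist1h1d, at 603.8 ± 47.6 and 714.2 ± 15.6 CPM (SD, n = 3 each), had a log2 fold change of 0.24 (SE 0.12) and was separate too. Hist1h1e, at 464.1 ± 52.9 and 497.9 ± 7.09 CPM (SD, n = 3 each), overlapped, since WT_2 b at 524.8 CPM was above all full-deletion samples. H1fx had 13.8, 17.2 and 12.3 CPM in WT_2 and 19.7, 17.6 and 18.6 in the full deletion (0.37, SE 0.15). In all, 5 of the 7 were separate and higher, against 26.7% of all genes, and 1 was separate and lower, against 24.6%.

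**Figure D3:**
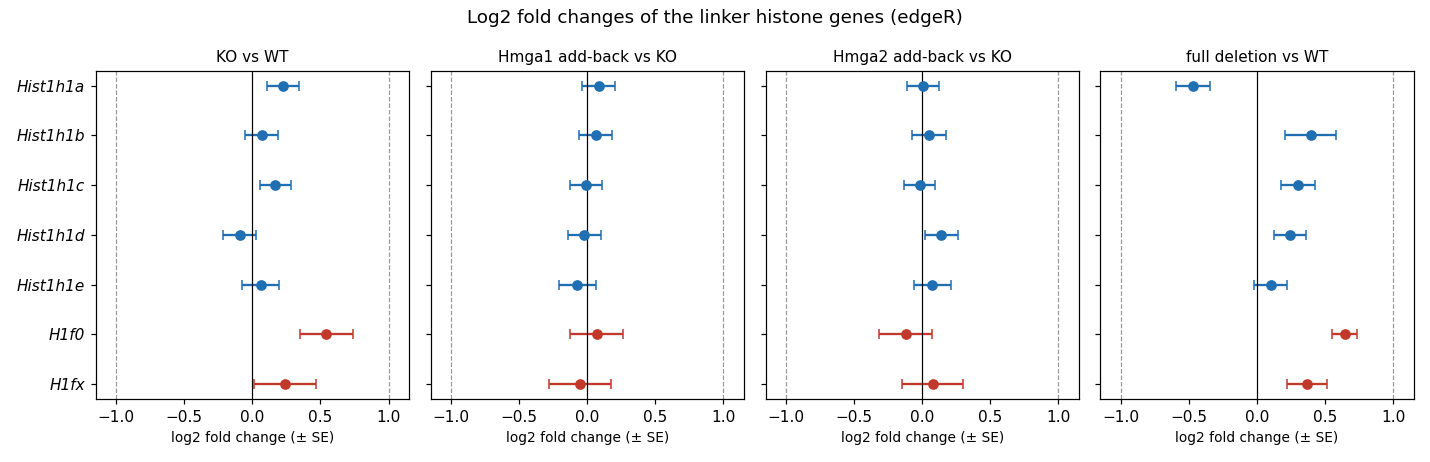
Log2 fold change with its standard error (edgeR's quasi-likelihood fit) of the 7 linker histone genes in 4 comparisons. Blue points are replication-dependent genes and red points H1f0 and H1fx, the solid line marks no difference and the dashed lines a fold change of 2 in either direction. All points lie inside the dashed lines, from -0.47 for Hist1h1a to 0.64 for H1f0 in the full deletion.

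These p-values depended on single samples. Without WT_2 b all 7 linker histone genes passed an adjusted p under 0.05 in edgeR, 6 of them higher and Hist1h1a lower, but so did 42.5% of all genes (5592 of 13163), 20.5% of all genes being higher and 22% lower. The log2 fold changes were then 0.66 for H1f0, 0.51 for H1fx and -0.50 for Hist1h1a, with adjusted p-values of 8.76e-07, 0.000690 and 6.25e-06 in edgeR, and those of the other 4 were between 0.19 and 0.23. Without WT_2 c, or without any 1 of the 3 full-deletion samples, none of the 7 passed and 3 or 4 genes passed in all. H1f0 then had adjusted p-values of 0.0727 to 0.147 in edgeR. Its log2 fold change was between 0.60 and 0.68 whichever sample was left out.

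**Figure D4:**
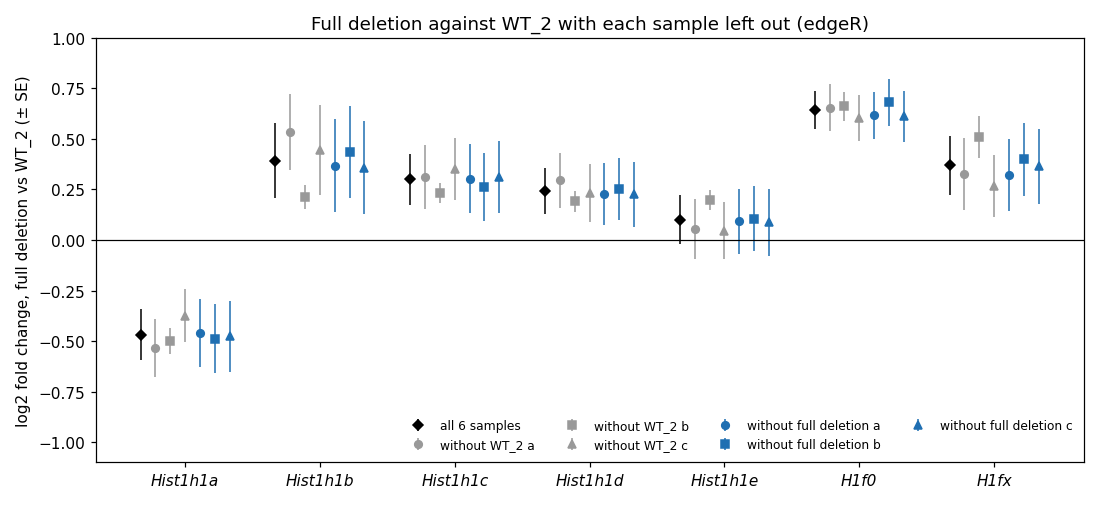
Log2 fold change of the full deletion against WT_2 with its standard error, for all 6 samples (black diamonds) and with each sample left out in turn (grey, WT_2 samples; blue, full-deletion samples). The standard errors are smallest without WT_2 b, and Hist1h1a is the only gene below 0 under each setting.

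The make-up of the linker histone transcripts per length was compared as shares, with no test. The size of each share depends on the gene lengths used. Hist1h1a made 36.2% to 42.0% of the summed RPKM in the WT_2 samples and 27.5% to 28.6% in the full-deletion samples. The share of Hist1h1c was 24.6% ± 0.403 in WT_2 and 29.5% ± 1.14 in the full deletion, and that of Hist1h1b was 17.5% ± 3.40 and 22.5% ± 1.27 (SD, n = 3 each). H1f0 made 0.706% ± 0.0828 and 1.07% ± 0.0551 (SD, n = 3 each). The summed RPKM of the 7 genes was 2666 ± 204 and 2740 ± 13.7, which differed by less than the spread of WT_2. That sum also depends on the lengths. The summed CPM of the 5 replication-dependent genes, in which the lengths are not used, was 3002 to 3350 in WT_2 and 3455 to 3470 in the full deletion. In the KO experiment the share of Hist1h1a was 39.7% to 43.7% in WT and 40.5% to 43.9% in the 6 other samples, with no separation.

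**Figure D5:**
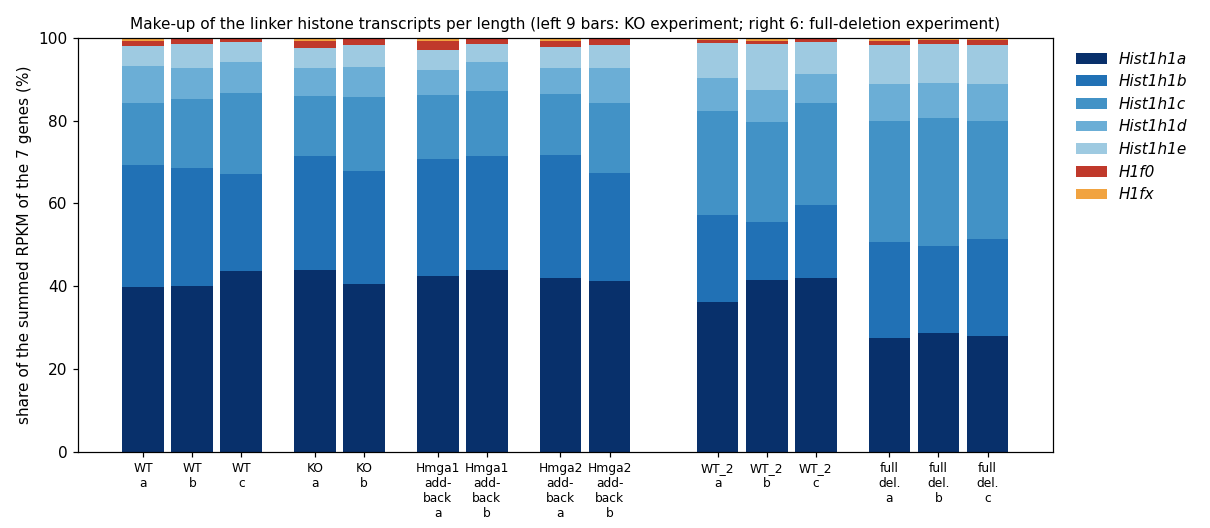
Share of each linker histone gene in the summed RPKM of the 7 genes, per sample (stacked bars adding to 100%). Blue shades are the replication-dependent genes, red is H1f0 and orange H1fx. The Hist1h1a segment is shortest in the full-deletion samples, 27.5% to 28.6%, and lies between 36.2% and 43.9% in all others.

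Whether the KO and the full deletion differed in their effect was tested as an interaction over all 15 samples. Hist1h1a, higher by 0.23 in KO and lower by 0.47 in the full deletion on the log2 scale, had the largest difference of the 7. The difference was 0.70 (SE 0.19, unadjusted p = 0.00252, adjusted p = 0.144 in edgeR with Benjamini-Hochberg adjustment), beside an all-gene median of -0.03. It passed an adjusted p under 0.05 in DESeq2 (adjusted p = 0.00337) and, in edgeR, without WT_2 b (adjusted p = 0.0137), and over the alternatives the adjusted p reached 0.605. With DESeq2 329 of 13050 genes passed an adjusted p under 0.05 in all, and without WT_2 b 693 of 13115 did. In the main edgeR fit no linker histone gene was called at either threshold, against backgrounds of 0.0843% and 0.375% of 13050 genes. Of the 7, only Hist1h1a had an unadjusted p under 0.05, against 18.7% of all genes, and limma-trend called none. For H1f0 the difference was -0.09 (SE 0.23).

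The 2 sets of WT samples also differed from each other, in experiments that were normalised separately and are set side by side with no test. Hist1h1c was at 604.3 ± 142 CPM in WT and 1026 ± 87.5 in WT_2, and Hist1h1e at 228.5 ± 34.8 and 464.1 ± 52.9 (SD, n = 3 each). H1f0 was at 55.5 ± 6.13 and 42.8 ± 2.05 CPM.

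Genes around the linker histones were described from lists of known function. The 58 core histone genes tested were chosen by the start of their symbol, and the pseudogene Hist3h2bb-ps was among them. How many reads these genes share was not measured. None of the 58 passed an adjusted p under 0.05 in KO against WT in edgeR. In that comparison 37 were above 0 (48.6% of all genes), and the median log2 fold change was 0.04 beside -0.01 for all genes. In the full deletion 51 of the 58 were above 0 (53.4% of all genes), with a median of 0.58 beside 0.04 for all genes. Their summed level was 15484 ± 1597 CPM in WT_2 and 14552 ± 181 in the full deletion (SD, n = 3 each). Only Hist2h2bb passed, and it fell (log2 fold change -1.05, adjusted p = 0.0342 in edgeR with Benjamini-Hochberg adjustment). Calls at this threshold rested on WT_2 c and on each full-deletion sample, since 3 or 4 genes in all passed without any 1 of them.

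The machinery that makes and processes histone mRNA held 15 genes. In the full deletion 2 of them fell at an adjusted p under 0.05 and none rose, against 3.77% of all genes that fell and 4.47% that rose, with a median log2 fold change of -0.27. These were Casp8ap2, a coactivator of histone gene transcription, from 366.4 ± 150 to 146.5 ± 2.48 CPM (SD, n = 3 each), and Ncbp2, a subunit of the cap-binding complex (log2 fold change -0.65, adjusted p = 0.0443 in edgeR). Cpsf2 and Ncbp1, the next of the list by level, had log2 fold changes of 0.05 and 0.06. In KO none passed and the median was -0.07.

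Of 22 S phase genes, Ccne2, a cyclin of S phase entry, fell in the full deletion (log2 fold change -0.78, adjusted p = 0.0216 in edgeR) and none rose, 1 of 22 beside the same 3.77% of all genes. The helicase subunits Mcm3 and Mcm6 had log2 fold changes of -0.68 and -0.33, and the list median was -0.12. None of the 22 passed in KO, where the median was -0.01.

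The 7 chaperones and partners of H1 had a median log2 fold change of -0.66 in the full deletion, beside 0.04 for all genes. All 7 were below 0 and none passed an adjusted p under 0.05, while 53.4% of all genes were above 0. Ptma, the acidic protein prothymosin alpha, was at 5688 ± 2726 CPM in WT_2 and 3051 ± 149 in the full deletion, and Nasp, a histone chaperone, at 5217 ± 3504 and 2106 ± 55.7 (SD, n = 3 each). The list summed to 29777 CPM in WT_2 b, and the lowest WT_2 value was 14906. In KO the list median was 0.08. Among 9 HMG proteins the median was -0.61 in the full deletion and -0.10 in KO. Hmga1 was the only one to fall at an adjusted p under 0.05 in the full deletion (log2 fold change -4.86, adjusted p = 1.06e-05 in edgeR), and Hmga2 the only one to rise in the Hmga2 add-back against KO (3.86). Hmgb2 and Hmgn1 had -1.02 and -0.82 in the full deletion, neither past the threshold. Hmgb2 was at 1069 ± 626 CPM in WT_2 and 525.9 ± 13.2 in the full deletion (SD, n = 3 each). The 9 HMG genes summed to 1667 to 3207 CPM in the WT_2 samples and 982.0 to 1040 in the full-deletion samples. Both this sum and the list median include the deleted gene. Hmga1 was at 340.5 ± 26.1 CPM in WT_2 and 11.8 ± 0.766 in the full deletion (SD, n = 3 each), so a part of the fall was given by the deletion.

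The genes whose levels ran most like those of the linker histones were found by Pearson's r of log2 CPM over the 15 samples, each experiment centred on its mean, among 9674 genes. For the sum of the 5 replication-dependent genes they were Gm6525 (r = 0.93), Hsd17b4, a peroxisomal enzyme (0.90), and Mocs2, a subunit of molybdopterin synthase (0.87). For H1f0 they were Arap3 (0.97), Mgarp (0.95) and Auh (0.94), and for H1fx Aaas, a nuclear pore protein (0.98), Nkain1 (0.97) and Plxna1, a semaphorin receptor (0.97). These genes were picked as the highest of 9674, so their r cannot be set against that of given pairs of linker histone genes. Among such pairs r was lowest between Hist1h1a and Hist1h1d, at -0.58. It was highest between Hist1h1b and H1f0 and between H1f0 and H1fx, both at 0.61, and was 0.55 between Hist1h1c and Hist1h1d. Samples of a batch share preparation and depth, and these values are descriptions over 15 samples.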

How the data were processed

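RNA-seq counts of 15 ESC samples were used. The authors trimmed 3 bases from reads of 50, aligned them to mm9 (NCBIM37) with QuasR and bowtie, placed a multi-mapping read at 1 random site and counted same-strand reads per UCSC known gene. The deposited counts are whole numbers and not normalised. Genes averaging 10 or more reads over the samples of an experiment were tested with edgeR 4.0.16 (TMM, quasi-likelihood test, R 4.3.3) and Benjamini-Hochberg adjustment over all genes. Calls needed an adjusted p under 0.01 together with a fold change of 2 or more. As in the study's methods, batch (a, b, c) was a term in the KO experiment only. The letters mark shared library preparation there, and the deviations of WT a correlated with those of the other a samples (r = 0.36 to 0.49). CPM were scaled within each experiment, and RPKM used the width column of the deposited tables. Alternatives were DESeq2 1.42.0, limma-trend (limma 3.58.1, prior count 2), other scalings and filters, the batch term switched, and each sample left out. Fits were tested on simulated data. Genes compared by correlation averaged 100 or more reads in both experiments. Linker histone genes, all named, and the gene lists (named: the first by mean CPM in the KO experiment, and those past a threshold, chosen after their values were seen) were chosen with earlier results of these data known. Replicates varied beyond counting error, the chi-square over genes being 4.04 or more per degree of freedom. Plots were drawn with matplotlib 3.10.9. The ChIP data were not analysed here.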

Additional observations from a re-analysis of the deposited data

How the results depend on the processing

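No linker histone gene was called in any of the 5 comparisons under any alternative that kept the first threshold. At an adjusted p under 0.05 with no minimum fold change, 1 passed in the full deletion, H1f0. With counts scaled by their sum H1fx passed beside it, when 664 of 13098 genes passed in all. With DESeq2 Hist1h1a passed beside H1f0, when 3232 of 13098 did. H1f0 also passed with the replicate block by letters (log2 fold change 0.64, adjusted p = 0.0489 in edgeR), although the letters did not pair those samples (r = 0.08, 0.09 and -0.06). Leaving out the replicate block in the KO experiment turned the sign of Hist1h1c in KO (-0.0198), of H1fx in the Hmga1 add-back (0.00155) and of the H1fx interaction (0.331). Scaling by summed counts turned Hist1h1c (0.0168) and Hist1h1d (0.00409) in the Hmga1 add-back and Hist1h1c (0.0257) in the Hmga2 add-back. DESeq2 size factors and the DESeq2 test turned the Hist1h1e interaction (0.00980 and 0.0102). The cause was not tested. With 1 sample left out, log2 fold changes that changed sign ranged, in KO against WT, from -0.0562 to 0.206 for Hist1h1b, -0.213 to 0.0402 for Hist1h1d, -0.128 to 0.268 for Hist1h1e and -0.0776 to 0.489 for H1fx. In the Hmga1 add-back they ranged from -0.00700 to 0.162 for Hist1h1a, -0.134 to 0.0986 for Hist1h1c, -0.0583 to 0.00161 for Hist1h1d, -0.259 to 0.0863 for Hist1h1e, -0.320 to 0.385 for H1f0 and -0.440 to 0.180 for H1fx. In the Hmga2 add-back they ranged from -0.0804 to 0.102 for Hist1h1a, -0.0886 to 0.190 for Hist1h1b, -0.0785 to 0.0415 for Hist1h1c, -0.00184 to 0.289 for Hist1h1d and -0.0118 to 0.208 for H1fx. The interaction ranged from -0.216 to 0.171 for Hist1h1e, -0.351 to 0.193 for H1f0 and -0.433 to 0.125 for H1fx.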

Other observations

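Of the linker histones of the germ line, 3 were barely counted: H1fnt, H1foo and Hils1 had 0 to 4 reads in each of the 15 samples. The fourth, Hist1h1t, known from spermatocytes and encoded on chromosome 13 (23787680 to 23788588, plus strand), had 99 to 339 reads in the KO experiment. It had 3.13, 7.84 and 5.02 CPM in WT and 8.39 and 10.3 CPM in KO. The groups did not overlap, and 13% of all genes were separate and higher in KO. The log2 fold change was 0.86 (SE 0.34, adjusted p = 0.371 in edgeR with Benjamini-Hochberg adjustment). In the full-deletion experiment it had 24.4, 49.9 and 28.3 CPM in WT_2 and 8.23, 12.9 and 10.1 CPM in the full deletion. Hist1h1t fell there, with a log2 fold change of -1.71 (SE 0.30, adjusted p = 0.0286 in edgeR with Benjamini-Hochberg adjustment). At an adjusted p under 0.05, 3.77% of all genes fell. In that fit 3 or 4 genes in all passed an adjusted p under 0.05 once WT_2 c or a full-deletion sample was left out. The 2 experiments were normalised separately and are set side by side here with no test. On that footing the level in WT_2 was above that of all other groups. Those of KO, the add-backs and the full deletion lay between 8.23 and 12.9 CPM. The interaction of KO and full deletion for Hist1h1t was 2.59 (SE 0.51, adjusted p = 0.0608 in edgeR with Benjamini-Hochberg adjustment). None of its 863 stretches of 47 bases was found elsewhere in the genome.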
